A study of Mus musculus with 24 samples.

Results

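The collagen genes of the mouse were described in the cerebral cortex and whole blood of neonates. They were taken from the study's gene table as the protein-coding genes whose symbol reads Col, a number, a and a number, which gave 44 of 48709 genes. Pregnant mice breathed filtered air (control) or nPM, the fraction of traffic air pollution made of nano-sized particles, and RNA of their pups was sequenced in 24 libraries. Each tissue had 12 libraries, 3 for each exposure in each sex. Pregnancies were exposed for 5 h a day on 3 days a week from gestational day 2. The labels give C57BL/6J mice, an nPM dose of 300 mg/m3 and an age of 3 to 5 days, whereas the methods give C57BL/6NJ mice, 300 μg/m3 and day 5. The methods take the 3 pups of a sex and exposure from different litters. Whether a male and a female pup of the same exposure shared a litter is not given, so libraries in fits of both sexes may not be independent. No label ties a blood library to the cortex library of its pup, and the spread behind every p-value is that between these libraries.

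Collagens are extracellular matrix proteins in which 3 chains wind into a triple helix. The fibrillar collagens form the cables of skin, bone and the fibrous coverings of the brain, type IV collagens form the sheet of the basement membrane under vessels and at the brain surface, and type VI collagens form beaded filaments around cells. Fibril-associated collagens sit on the cables, and a few collagens span the cell membrane. Neurons make little fibrillar collagen as a rule, and in brain most collagen comes from vessels and meninges. Blood cells make little collagen.

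Total counts per library ranged from 22301409 to 33804371 in cortex and from 13595647 to 21895536 in blood. Marker lists followed the tissue labels: 10 neuronal genes summed to 8203 to 9282 CPM (counts scaled to 1000000 per library) in cortex, and 10 blood cell genes to 476310 to 570383 CPM in 11 of the 12 blood libraries. The remaining blood library, V2 (control, female), stood apart in almost every collagen gene and was left out of the blood comparisons. In blood V5 (nPM, male) had 41.3 CPM of the neuronal list, the highest of the 11. In cortex V14 (control, male) had 30.6 CPM of a choroid plexus list, against 234 to 510 CPM in the other 11. It also had 177 CPM of an endothelial list, against 241 to 261 CPM. In bulk RNA fewer cells of a type and less RNA per cell cannot be told apart.

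All 44 collagen genes had a count in every cortex library. Their summed level ran from 570 CPM in V14 to 972 CPM in V10 (control, female). Basement membrane genes held 24.5 to 32.5% of collagen counts (median 30.6%), fibrillar genes 26.95 to 41.7% (median 30.3%) and fibril-associated genes 14.7 to 19.5%. The cortex thus had no single leading class, and the highest fibrillar share was that of V10.

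Levels of different genes were compared as CPM per kilobase of exon, which takes out gene length. Col4a1 and Col4a2, the chains of the common basement membrane sheet, led the cortex with medians of 17.3 (range 10.97 to 19.9) and 11.4 (8.54 to 13.6). The fibril-associated Col9a3 followed at 8.61 (6.00 to 10.6). Next came the fibrillar Col1a1 at 7.14 (4.51 to 21.8), and the ranges of these neighbours overlapped. Col6a1, a chain of beaded filaments, stood at 4.96, Col19a1 at 4.24, Col1a2 at 4.22 and Col3a1 at 3.81. In the other classes the leaders were Col8a1 at 3.41 (short-chain network), the transmembrane Col23a1 at 3.25, Col26a1 at 2.74 and Col18a1, a basement membrane proteoglycan, at 1.68. The remaining 29 genes had medians from 0.164 (Col4a3) to 3.43 (Col9a2). At the low end were Col10a1 of growth plate cartilage at 0.127, Col17a1 of skin attachment plaques at 0.0740 and Col6a6 at 0.0614, each with a median of 11 to 17 counts.

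**Figure D1:**
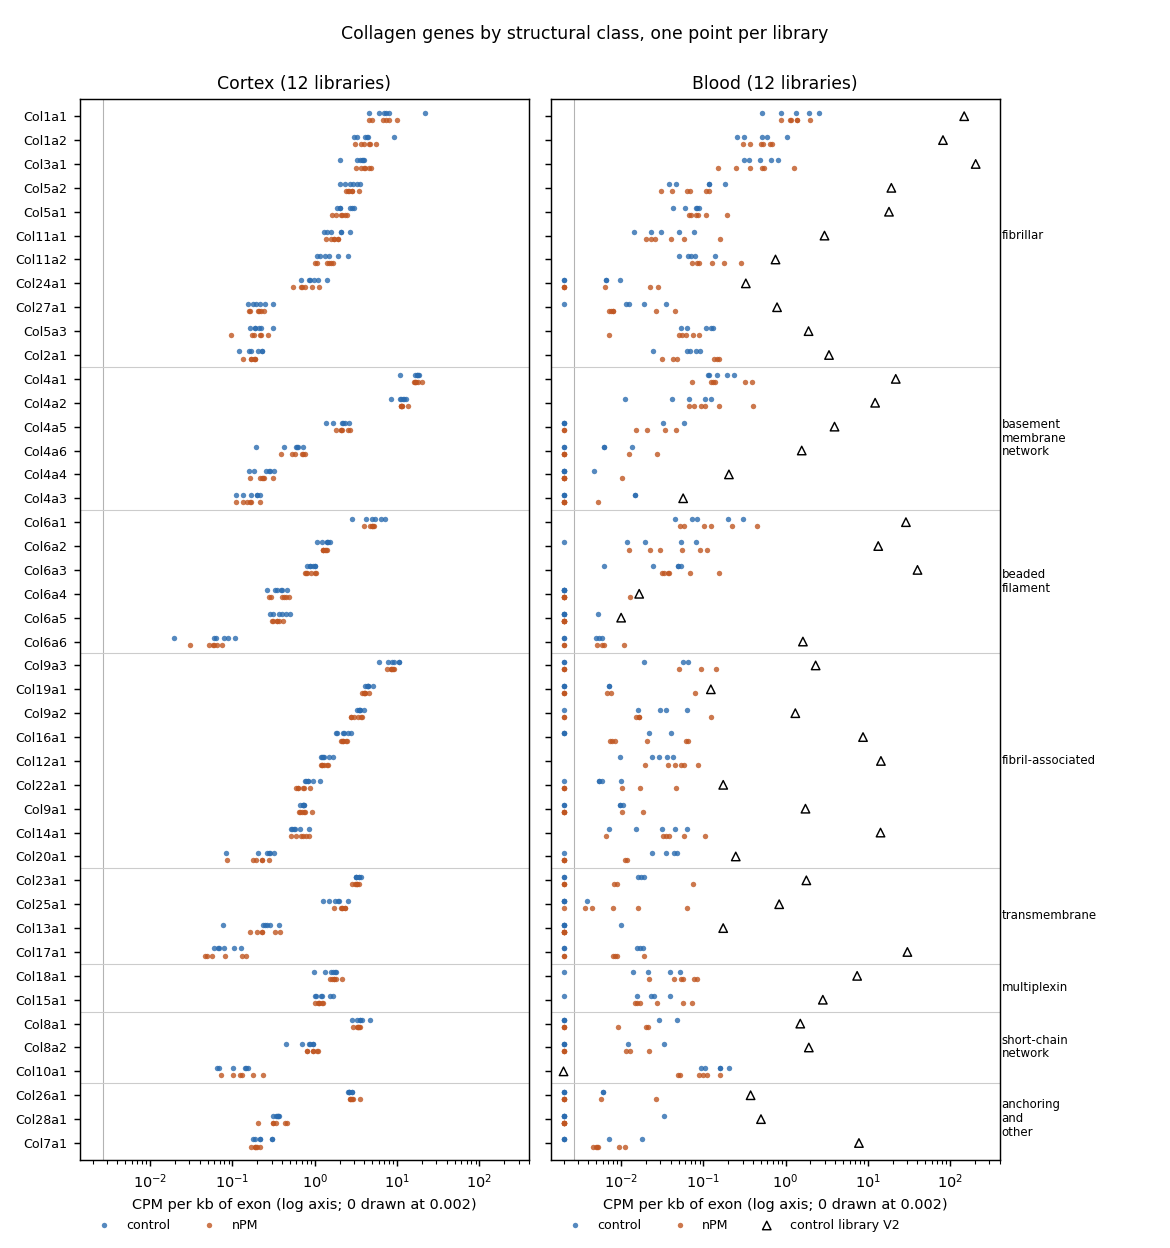
Level of each collagen gene in each library as CPM per kb of exon on a log axis, cortex on the left and blood on the right, with genes grouped by structural class, control libraries in blue, nPM libraries in orange and blood library V2 as an open triangle. Points left of the grey line are libraries with 0 counts. V2 lies above the 11 other blood libraries for 43 of the 44 genes, and Col4a1 and Col4a2 lead the cortex.

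Blood held far fewer collagen counts. The 11 libraries other than V2 had 251 to 1007 collagen counts in all, or 18.4 to 52.1 CPM. Fibrillar genes made up 67.9 to 85.9% of them (median 79.7%), so the mixture differed from that of cortex in each of these libraries. Col1a1 (median 8.89 CPM, range 3.43 to 16.7), Col1a2 (6.42, 3.15 to 13.004) and Col3a1 (4.79, 1.48 to 12.6) led. Col4a1 followed at 1.03 CPM (0.541 to 2.90). Of the 44 genes, 16 had a count in each of the 11 libraries, 28 in only some, and 10 had at most 3 counts in each. For those 10 a difference between groups was not detectable at this depth.

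Per kilobase, Col1a1 again led blood at 1.36, followed by Col1a2 at 0.517 and Col3a1 at 0.488. Below Col4a1 (0.138) ranked Col10a1 at 0.103 CPM per kb, on 3 to 13 counts. Its span on chromosome 10 (34389981 to 34397085, mm10) lies within Nt5dc1 on the opposite strand, and Nt5dc1 itself had 8 to 34 counts in these blood libraries and 30 to 77 in cortex. Whether the counting used strand is not given in the sources used here, so reads of the 2 genes may not be told apart. Spans of 27 of the 44 genes overlap another gene, 17 of them on the opposite strand.

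**Figure D2:**
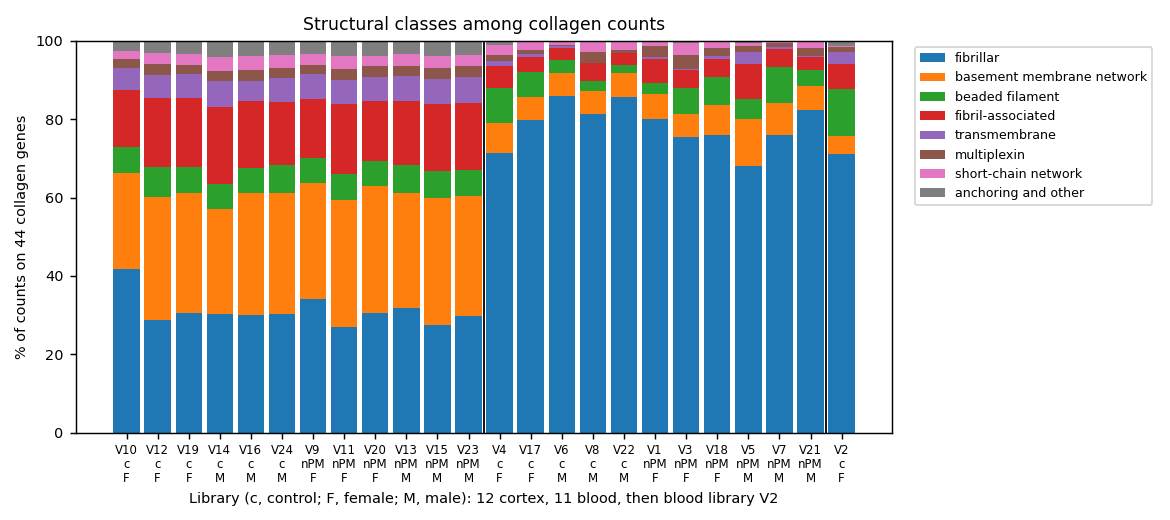
Share of all counts on the 44 collagen genes held by each structural class, in percent, 1 bar per library; 12 cortex libraries, 11 blood libraries and then V2. Fibrillar genes hold 26.95 to 41.7% in cortex and 67.9 to 85.9% in the 11 blood libraries, and 71.2% in V2.

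In V2, 131409 counts fell on collagen genes, or 6206 CPM. Col3a1 had 42424 counts there and 30 to 243 in the other 11 libraries. Col1a2 had 21502 (52 to 241) and Col1a1 20564 (75 to 309). Above all the other blood libraries were 43 of 44 genes, and 28 exceeded their cortex median. Skin collagens stood out by ratio: Col17a1, the collagen of the plaques that hold epidermis to its basement membrane, had 3686 counts against 0 to 2, and Col7a1, which forms the anchoring fibrils below it, had 1695 against 0 to 4. Over the pooled level of the other 11 libraries these were 3338-fold and 1299-fold higher, Col6a3 was 790-fold and Col3a1 392-fold higher. With 1 library this is a comparison of libraries, with no test.

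Not every collagen was high in V2. It had 0 counts of Col10a1, which allows up to 0.142 CPM (a limit of 3 counts, counting error only), whereas the other 11 libraries had 0.154 to 0.642 CPM; Nt5dc1 had 208 counts in V2. Col6a5 had 2 counts, Col6a4 3, Col4a3 12 and Col19a1 18. The last of these is among the leading collagens of cortex. Beside this, a keratinocyte list of 10 genes summed to 9281 CPM in V2 (0.0495 to 8.85 CPM in the others), a connective tissue fibroblast list to 1614 CPM (3.45 to 9.48 CPM), a skeletal muscle list to 262 CPM (2.02 to 29.7 CPM) and the blood cell list to 376338 CPM. All 6 choroid plexus genes were at 0. The part of these cells in the collagen level of V2 was not tested.

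Control cortex was set against control blood (6 against 5 libraries) with edgeR's quasi-likelihood test, adjusted for sex, for the 16 collagen genes counted in every one of these 11 libraries. Adjusted p was under 0.05 for 12 of 16, and for 86.2% of all 10275 genes tested. Relative to the other genes, 6 were higher in cortex, led by Col4a2 (log2 difference 3.15 ± 0.27 SE, adjusted p = 9.24e-09) and Col4a1 (2.50 ± 0.23, adjusted p = 2.48e-08), followed by Col12a1 (1.46), Col11a1 (1.39), Col6a1 (1.01) and Col5a1 (0.91). The 6 that were lower in cortex were Col10a1 (−4.47 ± 0.35, adjusted p = 3.56e-09), Col5a3 (−3.02), Col2a1 (−2.72), Col1a1 (−1.67), Col3a1 (−1.51) and Col1a2 (−1.12). Col5a2, Col6a3, Col14a1 and Col11a2 did not pass. The 2 basement membrane genes tested (of 6) were both higher, and 5 of the 9 fibrillar genes tested (of 11) were lower. Collagen genes without a count in some control blood library were not tested, so the balance of higher and lower genes does not cover them. With genes of at least 1 count in any of these libraries tested, 35 of 44 passed, 28 higher and 7 lower in cortex, against 16131 of all 31272 genes.

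These directions depend on the scaling. The 10 blood cell genes, globins among them, took at least 476310 CPM in blood, the scaling factors (TMM, edgeR's trimmed mean method) ran from 0.164 to 3.78, and the median of all genes was 0.24. With library totals alone that median was 4.35. Of the collagen genes 15 of 16 passed, as did 9844 of all 10275 genes, and all 15 were higher in cortex. The exception, Col10a1, was at −0.37. The lower values above are thus lower relative to other genes, and in CPM only Col10a1 was lower in cortex (mean 0.351 against 0.452 CPM in controls). With V2 included 5 of 15 passed, all lower in cortex, against 7875 of all 10264 genes.

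The study asked whether prenatal nPM changes gene expression in the neonate, with an adjusted p under 0.05 as its criterion and an unadjusted p under 0.005 as a nominal level where no gene met that. The nominal level was used here in 8 edgeR fits, with the adjusted p beside the genes that passed and RIN (the RNA integrity number) as covariate. Unlike that rule, it was used also where genes met the adjusted criterion: 3 genes in cortex, 241 in female cortex and 2 in female blood. Of the collagen genes, 0 met the adjusted criterion in these fits. At the nominal level 0 of 44 collagen genes passed in cortex of both sexes, against 0.614% of the 20857 genes tested. Unadjusted p was under 0.05 for 3 of 44, and for 1183 of the 20857 genes. Fitted folds were below 0 for 28 of 44 genes, with a median of −0.07 (−0.0024 over all genes), and for 10 of 11 fibrillar genes. DESeq2 passed 1 gene (Col22a1) and limma voom 0.

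The gene with the smallest p was Col22a1, a fibril-associated collagen known from tissue junctions such as that of muscle and tendon (chromosome 15, 71795795 to 72034227, mm10). Its level was 7.09 to 10.8 CPM in controls (median 7.62) and 5.42 to 7.98 CPM after nPM (median 6.22), and the groups overlapped. The log2 fold change was −0.37 ± 0.12 SE (edgeR adjusted p = 0.844). A two-sided exact permutation test on CPM gave p = 0.0173. Within sequencing lane 2 (4 against 4 libraries) the CPM difference was −0.52 on the log2 scale and within lane 3 (2 against 2) −0.05. Col25a1, a membrane collagen of neurons, was at 0.22 ± 0.08 (adjusted p = 0.844) and Col19a1 at −0.14 ± 0.06 (adjusted p = 0.862). Single libraries moved the count: without V23 (nPM, male) 2 genes passed, Col22a1 and Col19a1, and without V24 (control, male) 1, Col25a1.

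In female cortex 4 of 44 collagen genes passed, all lower after nPM, where 4.02% of 21731 genes passed (258 higher and 615 lower). The count of 4 is read against that share, and the adjusted p of each gene missed 0.05. By adjusted p under 0.05, which the study used for its gene set of female cortex, 0 of 44 passed, against 241 of the 21731 genes. They were Col22a1 and the fibrillar genes Col5a1, Col24a1 and Col11a1. Type V and type XI collagens are minor chains inside the larger cables and set their width, and Col24a1 encodes a related minor chain.

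Col22a1 stood at 8.76, 10.8 and 7.64 CPM in control females and at 5.74, 5.42 and 6.73 CPM in nPM females. Col5a1 (chromosome 2, 27886425 to 28039514) stood at 23.9, 25.7 and 22.7 against 20.01, 13.6 and 18.3 CPM. For both genes each nPM female was below each control female. Col24a1 (chromosome 3, 145292472 to 145552011) stood at 7.50, 10.7 and 8.42 CPM in controls and 6.97, 5.24 and 5.29 CPM after nPM. Col11a1 (chromosome 3, 114030540 to 114220718) stood at 26.7, 33.9 and 26.8 against 22.0, 20.4 and 24.6 CPM. Here too the groups did not overlap, with V12 the highest control for all 4 genes. The log2 fold changes were −0.58 ± 0.15 SE for Col22a1 (adjusted p = 0.0858), −0.45 ± 0.12 for Col5a1 (0.0880), −0.62 ± 0.16 for Col24a1 (0.0914) and −0.38 ± 0.11 for Col11a1 (0.119). An exact permutation test gave p = 0.10 for each gene, the smallest that 3 against 3 libraries allow.

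The bases just before the start of Col5a1, Col11a1 and Col24a1 are shown because these 3 fibrillar genes passed together; Col22a1 had no window in the reference used. Sequences are RefSeq promoter windows (GRCm38.p6), 250 bases on the gene's strand up to the base before its start, at chr2:27886175-27886424, chr3:114030290-114030539 and chr3:145292222-145292471, all on the plus strand. Capitals mark the motif CCAAT, the motif GGGCGG and the motif TATAAA, each on either strand, and no matches overlap.
Col5a1: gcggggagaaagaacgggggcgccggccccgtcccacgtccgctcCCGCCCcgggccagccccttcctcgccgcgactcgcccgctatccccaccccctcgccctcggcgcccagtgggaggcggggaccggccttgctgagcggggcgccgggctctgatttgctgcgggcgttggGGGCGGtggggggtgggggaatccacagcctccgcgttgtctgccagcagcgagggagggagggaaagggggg
Col11a1: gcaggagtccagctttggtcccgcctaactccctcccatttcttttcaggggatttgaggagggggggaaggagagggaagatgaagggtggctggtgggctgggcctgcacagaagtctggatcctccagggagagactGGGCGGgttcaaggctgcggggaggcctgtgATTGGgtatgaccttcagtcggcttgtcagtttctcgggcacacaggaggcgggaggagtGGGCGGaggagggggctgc
Col24a1: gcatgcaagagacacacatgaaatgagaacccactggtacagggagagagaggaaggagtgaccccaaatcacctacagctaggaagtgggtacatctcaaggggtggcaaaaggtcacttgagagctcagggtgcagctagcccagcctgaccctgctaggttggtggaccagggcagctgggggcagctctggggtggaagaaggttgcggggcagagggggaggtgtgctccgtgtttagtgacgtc

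The 3 windows share little in these letters. That of Col5a1 is 76.4% G or C and holds GGGCGG 2 times, that of Col11a1 (62.4%) holds it 2 times and CCAAT 1 time, and that of Col24a1 (58%) holds none of the motifs. In windows of 250 bases before to 50 after the start, GGGCGG was found in 23 of 38 collagen windows (60.5%, from 35 genes) and in 35.7% of all 32851 windows. CCAAT was found in 13 (34.2%, against 37.4%) and TATAAA in 5 (13.2%, against 13.6%). A match is a description of letters and no more.

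The other collagen genes of female cortex lay on both sides. Unadjusted p was under 0.05 for 13 of 44, and for 3349 of all 21731 genes. Of the 13, 3 were at positive folds: the fibrillar Col3a1 (0.27), Col26a1 (0.26) and the fibril-associated Col14a1 (0.43). All 6 beaded filament genes had folds below 0 (median −0.27), as did 9 of 11 fibrillar genes (median −0.32), while the 6 basement membrane genes centred on 0.01. Over the 44 genes the median was −0.17, against −0.0022 over all genes. DESeq2 and limma voom each passed the same 4 genes. By DESeq2 the adjusted p was under 0.05 for 3 of them, at 0.0286 for Col5a1, 0.0419 for Col24a1 and 0.0486 for Col22a1. Over all 21731 genes it was under 0.05 for 443 by DESeq2 and for 241 by edgeR.

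Which genes passed in females rested on single libraries. Without V11 (nPM) 1 gene passed, Col3a1 as higher, and without V12 (control) 1, Col12a1 as lower, so none of the 4 passed in either. Their folds stayed below 0 without either library, at −0.55 and −0.39 for Col22a1, −0.32 and −0.37 for Col5a1, −0.49 and −0.46 for Col24a1 and −0.32 and −0.23 for Col11a1. Without V20 (nPM) the count was 2, Col11a1 and Col22a1. Within lane 2 (2 against 2) the log2 differences in CPM were −0.81 for Col22a1, −0.56 for Col5a1, −0.57 for Col24a1 and −0.52 for Col11a1, and within lane 3 (1 against 1) −0.18, −0.31, −0.67 and −0.13. A list of 12 meningeal fibroblast genes, all with counts in every library, summed to 51.1 to 68.2 CPM in control and 70.2 to 86.8 CPM in nPM females and so did not overlap either. The choroid plexus list was at 337 to 394 and 384 to 510 CPM. The part of either list in the collagen differences was not tested.

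In male cortex 0 of 44 passed (0.318% of all genes). DESeq2 and limma voom also passed 0. By edgeR 2 of 44 had an unadjusted p under 0.05, as did 978 of all 21670 genes. The 2 were Col11a1 (0.34 ± 0.12 SE) and Col16a1 (0.25 ± 0.11). Col11a1 stood at 16.3, 20.3 and 17.9 CPM in control and 22.0, 17.4 and 24.6 CPM in nPM males, and the groups overlapped. Control males were below each control female for this gene and for Col5a1 (17.02, 17.04 and 15.7 CPM). Without V15 (nPM) Col11a1 passed, and without V24 (control) Col25a1 and Col6a1, as higher.

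The difference between the sexes was tested as the nPM by sex interaction. By edgeR 0 of 44 genes passed in cortex (1.35% of all genes). Unadjusted p was under 0.05 for 5, and for 2018 of all 20857 genes. Col11a1 came nearest, with a log2 fold in males minus that in females of 0.62 ± 0.19 SE (adjusted p = 0.362), and DESeq2 passed it alone, whereas limma voom passed 0. Col5a1 was at 0.55 (adjusted p = 0.411), Col24a1 at 0.73 (adjusted p = 0.478), Col26a1 at −0.32 and Col12a1 at 0.31. Col22a1, low in females, had a male fold of −0.06. By this edgeR fit a difference between the sexes is thus not shown for any of the 4 female genes. With genes of at least 1 count in any library tested, adjusted p was 0.00232 for Col11a1 and 0.0277 for Col5a1. It was then under 0.05 for 379 of all 32461 genes, against 0 before, so the outcome depends on the filter. Leaving out 1 library gave 0 to 2 genes: Col5a1 without V9, Col5a1 and Col11a1 without V15, Col11a1 without V16, V19 or V20, and Col6a1 without V24.

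**Figure D3:**
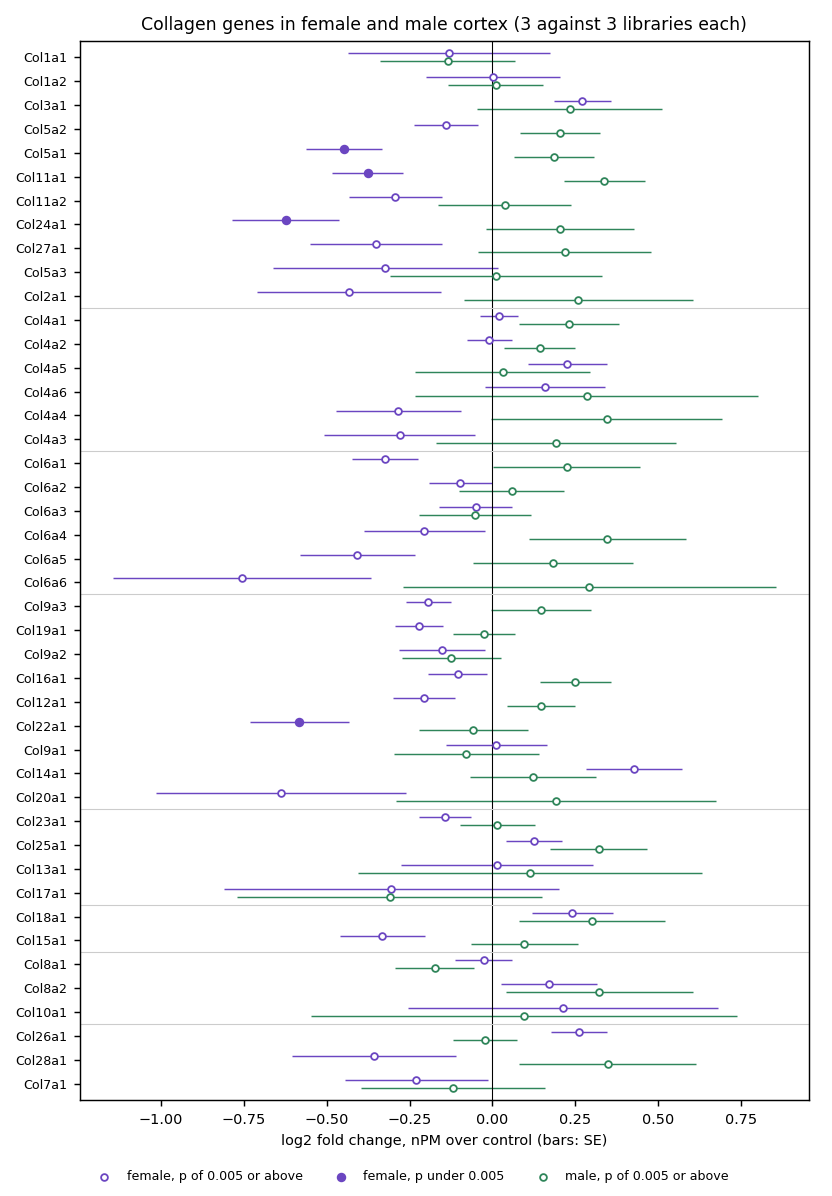
Log2 fold change of nPM over control for the 44 collagen genes in female (purple) and male (green) cortex, from edgeR, with bars of 1 SE and genes in the order of their classes. The 4 filled points, all female and left of 0, are the genes with p under 0.005; no male gene passed.

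In blood of both sexes without V2, edgeR tested the 16 genes with a count in each library. At p under 0.005 0 of 16 passed, against 0.17% of 9977 genes, and by DESeq2 and limma voom also 0. Unadjusted p was under 0.05 for 2, and for 310 of all 9977 genes. Col12a1, a fibril-associated collagen, had 3 to 24 counts over the 11 libraries and was at 0.95 ± 0.37 SE on the log2 scale (adjusted p = 1.0). The other was Col11a2 (0.80), and the next smallest p was that of Col5a3 (−0.84). With V2 among the controls Col12a1 turned to −1.64.

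In male blood 3 of 17 collagen genes passed as higher after nPM, against 0.33% of 10602 genes, each with an adjusted p of 1.00. Col6a3, a beaded filament chain, had 6, 12 and 1 counts in controls V22, V6 and V8 and 7, 15 and 36 in nPM V21, V5 and V7. Col3a1 had 97, 148 and 42 against 95, 93 and 243 counts. For both genes the groups overlapped and V7 was the highest library. Col4a1 had 17, 33 and 12 against 17, 44 and 56 counts, and again the groups overlapped. Log2 fold changes were 3.06 ± 0.68 SE, 1.30 ± 0.33 and 1.62 ± 0.44. Two-sided exact permutation tests on CPM gave p = 0.2, 0.5 and 0.2.

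The calls and the folds rested on the covariate. Without RIN 0 of 17 passed, and the log2 fold changes were 1.30 for Col6a3, 0.28 for Col3a1 and 0.56 for Col4a1. RIN was 8.7, 9.3 and 8.6 in the controls and 8.3, 8.5 and 8.7 in the nPM males, so V6, the highest control for all 3 genes, also had the highest RIN. Without V7 the 3 genes no longer passed and Col11a1 and Col4a2 did; without V22 only Col6a3 passed, and without V8 Col4a1 and Col6a1. DESeq2 passed Col4a2 in place of Col4a1. V7 and V6 also had the highest level of the muscle list in males (29.7 and 15.8 CPM). A list of 12 mural cell genes, of vessel walls, summed to 0.791 to 1.08 CPM in control and 1.29 to 2.28 CPM in nPM males, with no overlap and 5 to 10 of the 12 genes with a count. Its markers Tagln and Higd1b were each at 0 in 5 of these 6 libraries. The part of either list in these values was not tested.

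**Figure D4:**
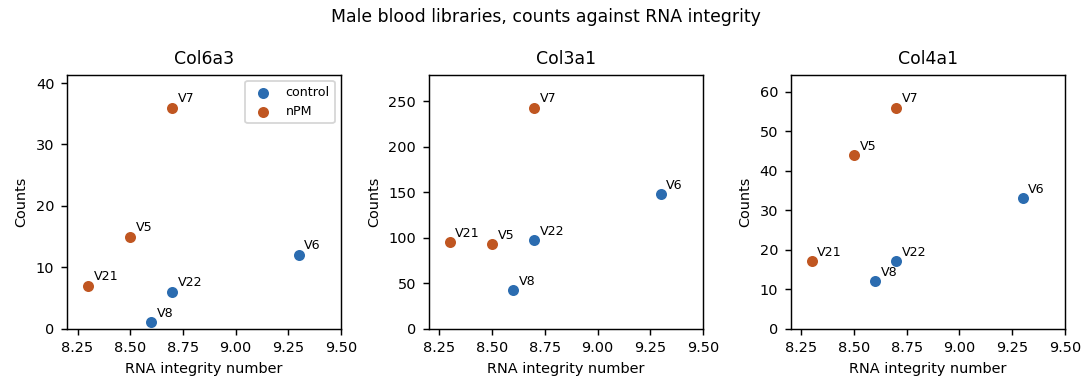
Counts of Col6a3, Col3a1 and Col4a1 in the 6 male blood libraries against RNA integrity number, controls in blue and nPM in orange. V7 is highest for each gene (36, 243 and 56 counts), and V21 lies among the controls for each gene.

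In female blood (3 nPM and 2 control libraries) edgeR passed 0 of 20 genes (0.699% of all genes), as did DESeq2 and limma voom. By edgeR 1 had an unadjusted p under 0.05, Col3a1 (−0.99, adjusted p = 0.619), against 885 of all 11013 genes. Without V18 or V1 (both nPM) Col3a1 passed as lower. Without V18, 762 of all 11281 genes passed, and without V1 54 of 11377, against 77 of 11013 with all these libraries. Without V17 or V4 (both controls) a lone control remained, assumed to vary like the nPM libraries, with 1 residual degree of freedom after RIN. Folds there were 1.53 for Col1a1 without V17 and −1.86 for Col3a1 without V4. For the nPM by sex interaction in blood all 3 tools passed 0 of 16 genes (0.902% of all genes). By edgeR 2 had an unadjusted p under 0.05, Col3a1 (1.81) and Col14a1 (2.71), against 1063 of all 9977 genes. Without V4 Col3a1 passed, without V8 Col6a2, and with V2 included Col3a1, Col6a3 and Col14a1.

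Chains that build 1 molecule or fibril were examined for joint variation over the 12 cortex libraries, in 12 pairs. By a permutation test on log2 CPM, with p adjusted over the pairs, 6 pairs passed. Closest were Col1a1 and Col1a2, the chains of type I collagen (Pearson r = 0.97, p = 2e-05, adjusted p = 0.00024; Spearman rho = 0.90, p = 0.00015). In V10 they stood at 143 and 114 CPM, against 29.6 to 66.2 and 37.6 to 69.2 CPM in the other 11. Without V10 and V15, the 2 libraries farthest out, r was 0.96. Col1a1 and Col3a1, its usual partner in fibrils, did not pass (r = 0.13, p = 0.633, adjusted p = 0.760; rho = 0.34, p = 0.277).

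Among basement membrane chains, Col4a1 and Col4a2 gave r = 0.93 (p = 0.00011, adjusted p = 0.00044; rho = 0.79, p = 0.00357) and Col4a5 and Col4a6 r = 0.91 (p = 6e-05, adjusted p = 0.00036; rho = 0.83, p = 0.00155). V14 was lowest in all 4 genes, at 81.9 CPM for Col4a1 and 1.56 CPM for Col4a6. Without V14 and V20 the first pair fell to r = 0.69, and without V14 and V12 the second to 0.82. Col4a3 and Col4a4 did not pass (r = −0.01, p = 0.969, adjusted p = 0.969; rho = −0.03, p = 0.921) at 33 to 67 and 47 to 106 counts.

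All 3 of these pairs lie head to head in the genome. Col4a1 and Col4a2 on chromosome 8 overlap by 22 bases at their starts, Col4a4 and Col4a3 on chromosome 1 leave 71 bases between them, and Col4a6 and Col4a5 on chromosome X 1308. Shown are the whole stretch of 71 bases between the pair that did not pass, at chr1:82586850-82586920, and the 250 bases before Col4a6, at chrX:141474077-141474326, from a pair that did (GRCm38.p6, both read on the minus strand, toward Col4a4 and Col4a6). Capitals mark the same 3 motifs as above.
Col4a4: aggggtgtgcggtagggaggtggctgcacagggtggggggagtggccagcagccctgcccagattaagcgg
Col4a6: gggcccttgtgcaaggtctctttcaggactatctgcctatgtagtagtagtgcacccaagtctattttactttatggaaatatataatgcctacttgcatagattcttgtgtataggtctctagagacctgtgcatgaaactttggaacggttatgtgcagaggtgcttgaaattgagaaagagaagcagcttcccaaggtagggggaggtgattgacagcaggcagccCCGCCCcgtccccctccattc

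The Col4a4 stretch is 69.0% G or C and holds none of the motifs, and that of Col4a6 is 47.6% and holds GGGCGG 1 time. Of the 3 head-to-head pairs, 2 passed.

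**Figure D5:**
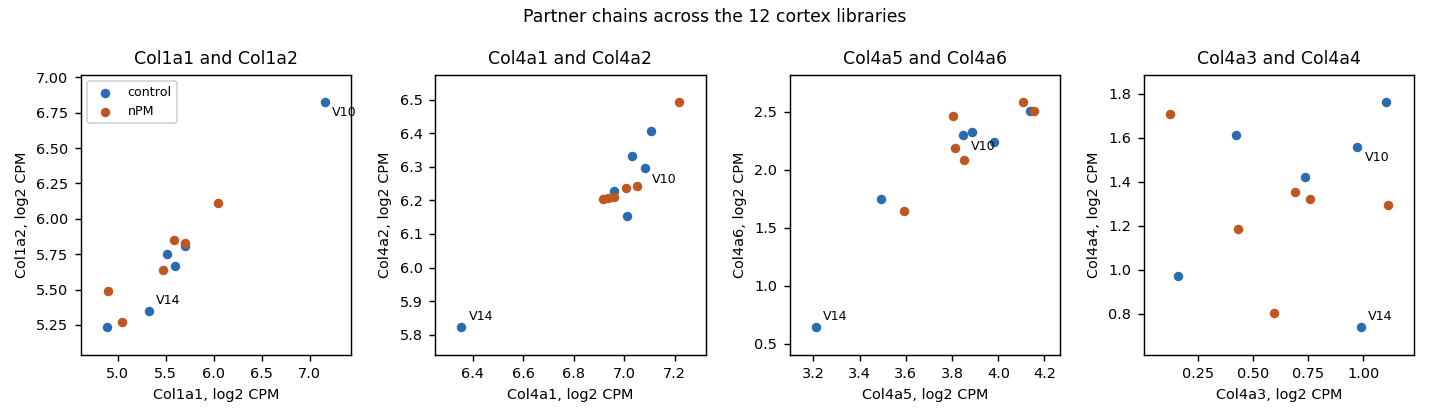
Log2 CPM of 4 pairs of partner chains in the 12 cortex libraries, 1 point per library, controls in blue and nPM in orange. Col1a1 and Col1a2 rise together up to V10 (r = 0.97), V14 is lowest for both Col4a1 with Col4a2 (r = 0.93) and Col4a5 with Col4a6 (r = 0.91), and Col4a3 with Col4a4 shows no trend (r = −0.01).

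Col6a1 and Col6a2 passed at r = 0.84 (p = 0.00093, adjusted p = 0.00279; rho = 0.57, p = 0.0563), which fell to 0.55 without V14 and V10. Col5a1 and Col5a2 (r = 0.65, p = 0.0218, rho = 0.73, p = 0.00901) and Col11a1 and Col11a2 (r = 0.64, p = 0.0245, rho = 0.59, p = 0.0484) passed with an adjusted p of 0.049 each. They fell to 0.44 without V12 and V11 and to 0.55 without V12 and V14. Taken as deviations from the means of the 4 groups of sex and exposure, r was 0.40 and 0.33. Not passing were Col6a1 and Col6a3 (r = 0.27, p = 0.417, adjusted p = 0.557; rho = 0.38, p = 0.226) and Col8a1 and Col8a2 (r = −0.50, p = 0.119, adjusted p = 0.178; rho = −0.56, p = 0.0631). Type IX chains did not pass either, with r = −0.59 for Col9a1 and Col9a2 (p = 0.0423, adjusted p = 0.0724; rho = −0.41, p = 0.193) and 0.10 for Col9a2 and Col9a3 (p = 0.758, adjusted p = 0.827; rho = 0.30, p = 0.340).

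Collagen levels in cortex were also set against the mean log2 CPM of 2 marker lists without collagens, over 12 libraries and adjusted over 20857 genes. By permutation, 0 of 44 collagen genes passed for the meningeal list (0% of all genes) and 0 of 44 for the endothelial list (0% of all genes). The smallest p these permutations can give is 1e-05, at which a lone gene could not pass, so the counts of 0 do not bear on whether relations exist. By Pearson's r, unadjusted p was under 0.05 for 7 and 11 genes, all positive, and for 1934 and 1484 of all 20857 genes. Without the 2 farthest libraries (V14 with V15, and V14 with V24) it was under 0.05 for 4 and 1 collagen genes. For the meningeal list these were Col4a5, Col3a1, Col26a1 and, at a negative r, Col24a1 (−0.65). For the endothelial list it was Col14a1, at r = −0.70, so none of the 11 remained. By Spearman's rho over the 12 libraries, unadjusted p was under 0.05 for 6 and 4 collagen genes, not all positive. Below 0 were Col19a1 (rho = −0.73) and Col24a1 (−0.69) for the meningeal list and Col14a1 (−0.65) for the endothelial list. No share over all genes is given for the counts by rho or without 2 libraries. Col4a5 came closest to the meningeal list (r = 0.84, p = 0.00053, adjusted p = 0.232; rho = 0.72, p = 0.0108), with r = 0.66 without V14 and V15. For the endothelial list Col6a6, on 5 to 25 counts, had the smallest p by Pearson's r (r = 0.80, p = 0.0028, adjusted p = 0.37, with rho = 0.72, p = 0.0107). Its r was 0.51 without V14 and V24. Col4a1 had the highest r but was not among the 11 (0.87, p = 0.0704, adjusted p = 0.727, with rho = 0.05, p = 0.886). Without V14 and V24 the r of Col4a1 was −0.34.

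Genes that build, process, degrade or bind collagen were read from lists. In cortex of both sexes edgeR passed 0 of 19 hydroxylases and chaperones, 0 of 13 processing and crosslinking genes, 0 of 13 tested turnover genes and 0 of 9 tested receptors at p under 0.005. Unadjusted p was under 0.05 for 2 of these (and for 1183 of all 20857 genes), the crosslinking enzyme Lox (0.33) and the prolyl hydroxylase subunit P4ha3 (0.31). In blood 0 of 29 tested genes of all lists passed, and 0 had an unadjusted p under 0.05 (310 of all 9977 genes). Among 16 basement membrane partners, 2 passed as lower in female cortex, where 4.02% of all genes passed: Pxdn, the enzyme that crosslinks type IV collagen (−0.19 ± 0.05 SE, edgeR adjusted p = 0.0907), and Hspg2, the proteoglycan perlecan (−0.38 ± 0.10, adjusted p = 0.106). In male cortex (0.318% of all genes) Pxdn passed as higher (0.36 ± 0.07, adjusted p = 0.962). For the nPM by sex interaction in cortex (1.35% of all genes) Pxdn (0.48 ± 0.10, adjusted p = 0.292) and the integrin chain Itga10 (1.61 ± 0.46, adjusted p = 0.360) passed.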

How the data were processed

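RNA-seq libraries of cerebral cortex (12) and whole blood (12) were described. The authors trimmed reads with Trimmomatic where needed, aligned them to mm10 with HISAT2 and counted them per gene with featureCounts 1.5.0-p3 on Gencode M11. The deposited table holds raw counts per gene, not normalized. The annotation table, which gives exon length per gene (a value of another kind, in bases), was used with those lengths, and its mean expression column was not used. The strand setting is not given in the sources used here.

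CPM were taken over all counts of a library. Counts were tested with edgeR 4.0.16 (R 4.3.3): TMM factors, a minimum of 1 count in each library fitted, quasi-likelihood F test, two-sided, on all genes, with Benjamini-Hochberg adjustment over all genes tested. Models held exposure, sex and RIN (interaction added where tested), RIN alone within a sex, and sex for the tissue comparison, after the study's model. Its criterion was an adjusted p of 0.05, with an unadjusted p of 0.005 as a nominal level where no gene met that. The nominal level is the cutoff of the nPM and interaction fits here, also where genes met the criterion. The study left out 1 blood sample. V2 was taken to be that sample from its values, so its removal was not independent of them. Correlations used log2 CPM after adding 0.5 counts and 100000 permutations. Alternatives were DESeq2 1.42.0, limma voom 3.58.1, RLE factors, other count filters, no RIN, lane as covariate, V2 included and 1 library left out. The fits were tested on simulated data.

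The members, gene lists and tests were chosen with earlier results of these data known. Genes were named by rule: each collagen gene past the cutoff in an nPM or interaction fit, the 3 smallest p in the cortex and in the blood fit, the leader per length of each structural class, listed chain pairs, Col22a1, and pathway genes past the cutoff in cortex or blood (a result there is not reported here); others were named after their values were seen, among them those of V2, those past the cutoff in 1 alternative and those with an unadjusted p under 0.05. Replicate numbers follow accession order only. Depth is given as total counts, and limits from counts cover counting error only.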

Additional observations from a re-analysis of the deposited data

Results flagged for a closer look

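In groups of 5 or 6 libraries a collagen gene was examined when 1 library stood apart from the others by Dixon's test at 95%. Of 113 groups 18 had such a library. The 5% rate of the test holds for normal values in independent groups. Low counts and the same library recurring across genes do not meet this, so the 18 are not read against it. In blood most were V5 (nPM, male), with the highest level among the nPM libraries for Col11a1 (2.06 CPM), Col4a2 (2.66 CPM), Col25a1 (0.813 CPM), Col19a1 (0.542 CPM), Col22a1 (0.434 CPM), Col23a1 (0.434 CPM), Col9a2 (0.379 CPM) and Col26a1 (0.217 CPM). The same library had the most counts of the neuronal list. Several of its values rest on few counts: 15 for Col25a1, 10 for Col19a1, 8 each for Col22a1 and Col23a1, 7 for Col9a2 and 4 for Col26a1. V7 (nPM, male) stood apart for Col3a1 (12.6 CPM), Col6a3 (1.86 CPM) and Col5a1 (1.66 CPM).

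In cortex V10 (control, female) was high for Col1a1 (143 CPM) and Col1a2 (114 CPM), and V14 (control, male) was low for Col4a1 (81.9 CPM). V20 (nPM, female) was high for Col4a2 (90.1 CPM) and Col26a1 (28.7 CPM). Col19a1 was high in V19 (control, female, 35.3 CPM) and V23 (nPM, male, 31.7 CPM). The blood library V2, outside the blood comparisons, had 6206 CPM of collagen in all, above each of the other 11. None of these was tested further.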

How the results depend on the processing

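Of 13 fold changes followed through the alternatives (the genes past the cutoff in female cortex and male blood and the 3 smallest p in cortex and in blood), 12 kept their direction, and that of Col12a1 in blood turned to −1.64 with V2 included. Counts of genes past the cutoff moved as follows. In 1 alternative a gene was tested if it had at least 1 count in any library. The counts were then 4 in cortex, 4 for the interaction in cortex and 7 in female cortex. They were 6 in male blood, 2 for the interaction in blood, 1 in male cortex and 35 between tissues. Adjusted p for the 4 female genes was then 8.97e-05 to 0.000694. This filter also moved the calls over all genes, as given above for the tissue comparison and the interaction in cortex. Shares over all genes under this filter are not given for the other fits. Their counts, and the adjusted p of the 4 female genes, are thus not read as particular to collagen genes. At least 10 counts in every library left 2 between tissues (4960 of all 5560 genes), 3 in female cortex (without Col11a1, and 775 of 16970) and 2 in male blood (17 of 5789, and Col6a3 was not tested). DESeq2 gave 1 in cortex (178 of 20857) and 1 for its interaction (339 of 20857). Without RIN male blood gave 0. V2 included gave 3 for the interaction in blood (88 of 9963) and 5 between tissues (7875 of 10264). Partner pairs without the 2 farthest libraries were 2 of 12. Leaving out 1 library gave 0 to 2 in cortex, 0 to 2 for its interaction, 1 to 5 in female and 0 to 2 in male cortex, 0 in blood, 0 to 1 for its interaction, 0 to 1 in female and 1 to 4 in male blood, and 11 to 15 between tissues. Library totals alone, chosen after seeing the data, are given beside the tissue comparison. The causes were not tested. No paired analysis was possible because the labels give no replicate numbers and tie no blood library to a cortex library. Depth limits blood: 16 of 44 genes had a count in every library there.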
